A study of Homo sapiens with 12 samples.

Results

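BRAF and MEK inhibition was compared with vehicle in Hs695T, a human melanoma cell line, on single-colour Affymetrix expression arrays. The comparison rests on 6 of the 12 arrays of the series, chosen by their sample titles: 3 from cells given dabrafenib at 100 nM with trametinib at 10 nM (titled DT, called MAPKi here) and 3 from cells given vehicle (titled DMSO). RNA was taken 24 h after the drugs were added, and no further genotype or agent is named for either group. The other 6 arrays came from cells given 1 µM of the histone deacetylase inhibitor entinostat, alone or together with the same dabrafenib and trametinib doses. Everything comes from 1 cell line. The titles number these as biological repeats, but the design text of the series speaks of technical triplicates, so the p-values cover only the spread between these arrays. In all, 14599 named genes were measured, and all of them were tested.

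Dabrafenib binds the kinase BRAF and trametinib binds its substrates MEK1 and MEK2, so the pair blocks the RAF, MEK and ERK kinase cascade at successive steps. In melanoma this cascade is often driven by an activating BRAF mutation, and active ERK enters the nucleus, where it phosphorylates transcription factors of the ETS and AP-1 families. Its known outputs are its own feedback inhibitors, the entry into the cell cycle and the growth of the cell's synthetic capacity.

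Most probe sets were dimmer with MAPKi. Median intensity per array was 53.3 ± 3.77 in vehicle (SD, n = 3) and 39.3 ± 1.68 with MAPKi, and the groups did not overlap. The median difference over all genes was -0.48 on the log2 scale of the deposited values. It depended on brightness: among 10 bins of genes ordered by mean intensity, it ran from -0.01 in the dimmest to -0.78 in the ninth and -0.74 in the brightest. After quantile normalization, which forces all arrays to 1 distribution, the bin medians lay between -0.02 and 0.03. A difference in total RNA per cell and a difference in hybridisation or scaling cannot be told apart here. Each gene was therefore tested on both scales with limma. On the deposited scale 434 genes were higher with MAPKi (2.97%) and 9660 were lower (66.2%) at a Benjamini-Hochberg adjusted p under 0.05. On the quantile scale 2075 were higher (14.2%) and 2139 were lower (14.7%). Of the genes lower on the deposited scale, 765 were higher on the quantile scale. From here on, "rose" and "fell" are kept for genes that passed in the same direction on both scales: 371 rose (2.54%) and 2134 fell (14.6%). The 3 MAPKi arrays all lay above the 3 vehicle arrays for 487 genes (3.34%) and all below them for 9894 genes (67.8%) on the deposited scale, and for 22.2% and 22.1% of genes on the quantile scale. Differences are log2 MAPKi minus vehicle on the deposited scale ± limma's standard error, with the quantile difference after it. Values given array by array are deposited log2 intensities of replicates 1 to 3.

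**Figure D1:**
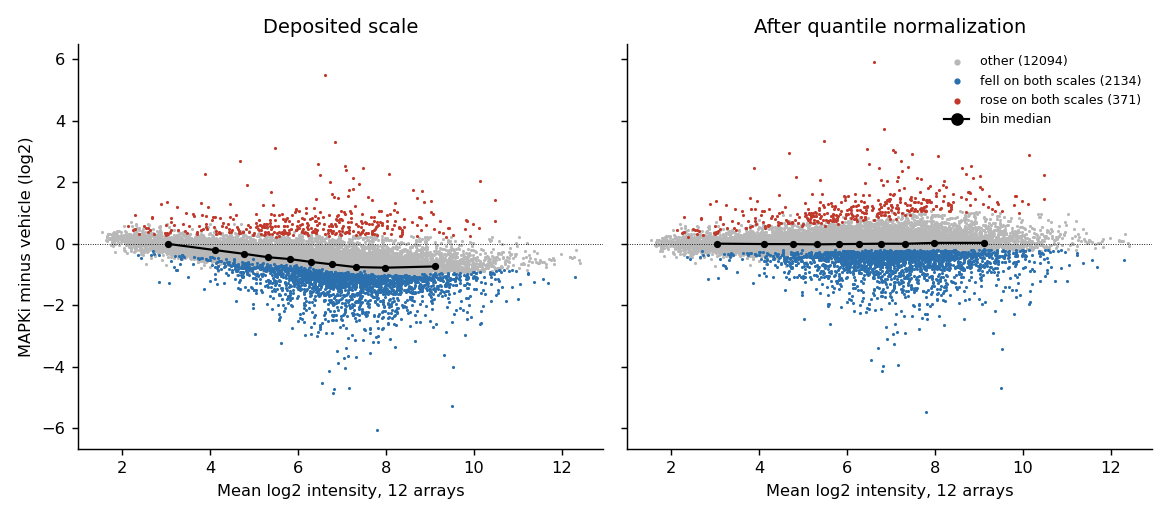
Log2 difference between MAPKi and vehicle (y axis) against mean log2 intensity over 12 arrays (x axis) for 14599 genes, on the deposited scale (left) and after quantile normalization (right). Red and blue points are the 371 genes that rose and the 2134 that fell on both scales, grey points are the others, and the black line joins the medians of 10 intensity bins; it slopes down to -0.78 on the left and stays within 0.03 of 0 on the right.

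The changes were graded in size. Among genes called on both scales, 226 rises and 351 falls were at least 1 log2 unit on the quantile scale, and 5 rises and 10 falls were at least 3. The deposited difference was not held to these sizes. Melanocytic marker genes were checked on the vehicle arrays, where probe sets of different genes cannot be ranked by level. Mean log2 intensity in vehicle was 11.49 for S100B and 9.96 for SOX10, the neural crest transcription factor, 6.09 for MITF, 4.27 for MLANA, 3.81 for the pigment enzyme TYR and 3.48 for TYRP1, against a median of 3.04 in the dimmest bin of genes. The table carries no detection call, so presence could not be decided for the dim ones. S100B fell (-1.61 ± 0.10, quantile -0.97), and SOX10 was lower on the deposited scale (-0.35 ± 0.12, quantile 0.40) and higher on the quantile scale; the deposited call was lost without vehicle replicate 3 (-0.29, limma adjusted p = 0.061) or MAPKi replicate 3 (-0.28, limma adjusted p = 0.063). Of other cell types, 3 fibroblast, 5 immune and 5 endothelial markers were measured, of which 1, KDR, fell and 0 rose on both scales. Of 7 keratinocyte markers 2 rose, KRT14 (0.58 ± 0.16, quantile 0.97) and KRT10 (0.38 ± 0.12, quantile 0.69), and 0 fell; without MAPKi replicate 1 the KRT10 difference was 0.29 and did not pass (limma adjusted p = 0.0618). Their summed linear intensity, over all 7, overlapped between groups, at 193 to 218 in vehicle and 192 to 213 with MAPKi. The fibroblast, immune and endothelial sums did not overlap and were lower with MAPKi, on the deposited scale, where most genes were lower. Fibroblast markers summed to 98.6 to 102 in vehicle and 60.2 to 68.6 with MAPKi. Immune markers gave 529 to 574 and 308 to 352, and endothelial markers 522.5 to 614 and 152 to 194. The part of these markers in the results below was not tested.

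Within the pathway itself, MEK and ERK genes differed little on the quantile scale, and BRAF was not analysed here. MAP2K1, which encodes MEK1, fell (-1.14 ± 0.11, quantile -0.33). MAP2K2, which encodes MEK2, did not pass on the deposited scale (-0.13 ± 0.13, quantile 0.34), and MAPK3, which encodes ERK1, was lower on the deposited scale alone (-1.0 ± 0.11, quantile -0.21). Of 67 measured MAP kinase cascade and RAS regulator genes 5 rose (7.46%, against 2.54% of all genes) and 17 fell (25.4%, against 14.6%). The risers included upstream adaptors and a scaffold. GAB1, a docking protein that links receptors to RAS and PI3K, read 6.43, 6.47 and 6.22 in vehicle and 7.14, 7.28 and 7.22 with MAPKi. Every MAPKi array lay above every vehicle array (0.84 ± 0.12, quantile 1.38, adjusted p = 1.2e-05 by limma). SOS1, the exchange factor that loads RAS with GTP (0.50 ± 0.10, quantile 1.30), and KSR1, a scaffold that holds RAF, MEK and ERK together (0.62 ± 0.11, quantile 1.38), rose as well, as did MAP2K6, a kinase of the p38 branch (0.39 ± 0.12, quantile 0.99). Other adaptors fell: SHC1 couples receptors to GRB2 and SOS, and it read 11.004, 10.73 and 11.02 in vehicle and 8.76, 8.90 and 8.79 with MAPKi, with no overlap between groups (-2.10 ± 0.11, quantile -1.40). GAB2, a relative of GAB1, fell (-1.71 ± 0.10, quantile -1.15), and so did MAP2K3, the other direct activator of p38 (-1.90 ± 0.11, quantile -1.15). The related pairs GAB1 and GAB2, and MAP2K6 and MAP2K3, moved in opposite directions.

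Receptor tyrosine kinases also changed in both directions. Of 43 measured 2 rose (4.65%, against 2.54% of all genes) and 11 fell (25.6%, against 14.6%). FGFR2, a fibroblast growth factor receptor, read 6.01, 5.89 and 5.85 in vehicle and 8.02, 7.89 and 7.82 with MAPKi, which is 4-fold higher with MAPKi (2.00 ± 0.10, quantile 2.48, adjusted p = 2.8e-10 by limma). ERBB4, a neuregulin receptor, also rose (0.85 ± 0.20, quantile 1.21). FGFR1, of the same family as FGFR2, read 8.29, 8.02 and 8.21 in vehicle and 6.04, 6.03 and 6.32 with MAPKi and fell (-2.04 ± 0.12, quantile -1.27). KDR, the VEGF receptor 2 (-2.92 ± 0.12, quantile -2.14), and EPHA2, an ephrin receptor (-2.36 ± 0.13, quantile -1.59), fell further. The ligand FGF1 rose (0.78 ± 0.13, quantile 1.16).

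In the list of textbook ERK targets the median was -1.79 (-1.08 on the quantile scale). Of 30 measured genes 27 fell (90%, against 14.6% of all genes). The exception was FOS, an immediate early gene and AP-1 subunit. It read 6.44, 6.57 and 6.86 in vehicle and 7.50, 7.43 and 7.36 with MAPKi, so the groups did not overlap and it rose (0.81 ± 0.12, quantile 1.39, adjusted p = 2.4e-05 by limma). MAFF, another immediate early bZIP gene, was lower on the deposited scale (-1.07 ± 0.17, quantile -0.40), and CXCL8, which encodes interleukin-8, did not pass on either scale (-0.23 ± 0.16, quantile -0.14). Of 26 tyrosine and dual-specificity phosphatases 0 rose and 6 fell on both scales, DUSP4 (-2.74 ± 0.12, quantile -1.96) and DUSP5 (-1.43 ± 0.15, quantile -1.01) among them, while DUSP10, a phosphatase of p38 and JNK, did not pass on the deposited scale (0.17 ± 0.10, quantile 0.85). On the quantile scale alone the counts for this list were 4 higher (15.4%, against 14.2% of all genes) and 6 lower (23.1%, against 14.7%).

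**Figure D2:**
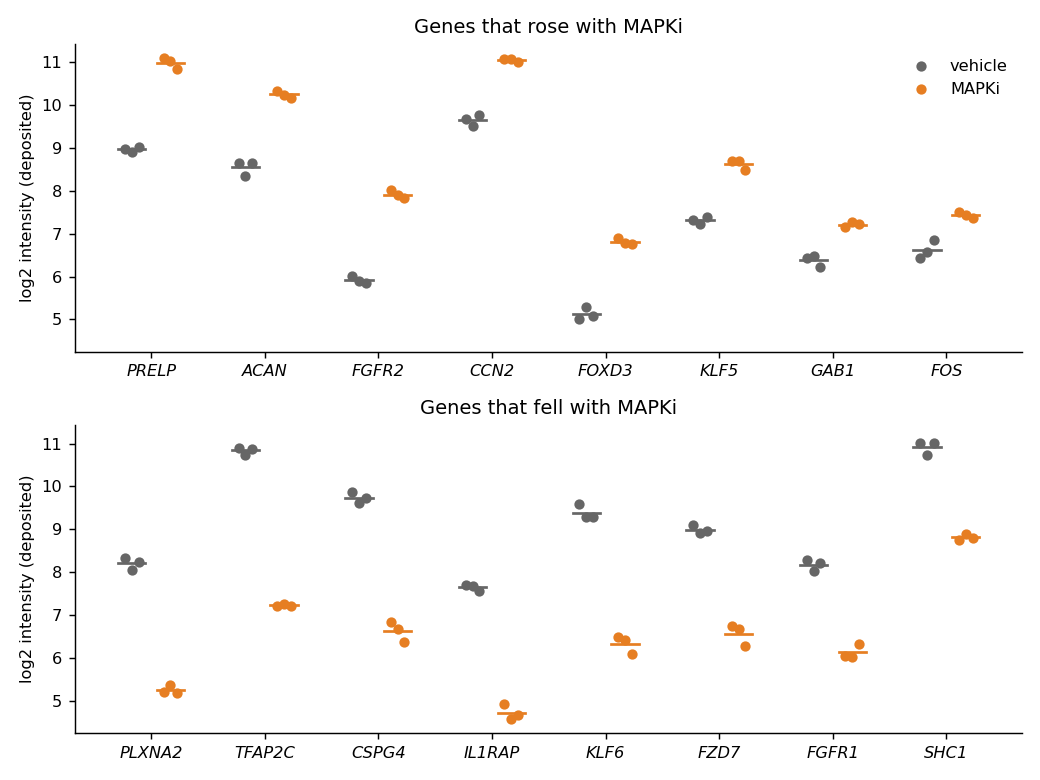
Deposited log2 intensity (y axis) on each of 3 vehicle arrays (grey) and 3 MAPKi arrays (orange) for 16 genes described in the text (x axis), with a bar at each group mean. In all 16 genes the groups do not overlap; the upper row holds 8 genes that rose and the lower row 8 that fell.

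Secreted and matrix proteins were among the large rises. Of 78 measured proteoglycans and matrix glycoproteins 7 rose (8.97%, against 2.54% of all genes) and 16 fell (20.5%, against 14.6%). PRELP, a small leucine-rich proteoglycan of basement membranes, read 8.98, 8.91 and 9.01 in vehicle and 11.10, 11.03 and 10.85 with MAPKi, 4.08-fold higher (2.03 ± 0.10, quantile 2.87, adjusted p = 1.6e-10 by limma). ACAN encodes aggrecan, the large proteoglycan of cartilage, and it read 8.65, 8.34 and 8.65 in vehicle and 10.34, 10.24 and 10.18 with MAPKi (1.71 ± 0.11, quantile 2.52). IGFBP5, an insulin-like growth factor binding protein, read 7.44, 7.37 and 7.59 in vehicle and 9.32, 9.29 and 9.0 with MAPKi (1.74 ± 0.11, quantile 2.47), whereas its relative IGFBP3 read 10.58, 10.43 and 10.54 in vehicle and 8.26, 8.32 and 8.16 with MAPKi and fell (-2.27 ± 0.10, quantile -1.55). Both IGFBP genes were far apart between groups, in opposite directions. CSPG4, the melanoma chondroitin sulfate proteoglycan known as NG2, read 9.86, 9.62 and 9.73 in vehicle and 6.83, 6.67 and 6.38 with MAPKi and was 8.65-fold lower (-3.11 ± 0.13, quantile -2.37). THBS2, a thrombospondin, fell (-2.19 ± 0.10, quantile -1.54), while THBS1 was lower on the deposited scale alone (-0.52 ± 0.10, quantile 0.15) and FN1, fibronectin, likewise (-0.62 ± 0.09, quantile -0.06). CCN2, a matricellular protein widely used as a YAP target, read 9.68, 9.52 and 9.76 in vehicle and 11.09, 11.09 and 11.02 with MAPKi and rose (1.41 ± 0.10, quantile 2.24). In the Hippo and YAP target list 2 of 26 rose and 10 fell, and on the quantile scale 9 were higher (34.6% against 14.2% of all genes) and 10 lower (38.5% against 14.7%), with AXL (-1.49 ± 0.11, quantile -0.79) and MYOF (-1.53 ± 0.10, quantile -0.77) among the falls. SLPI, a secreted leukocyte protease inhibitor (1.76 ± 0.19, quantile 2.17), and the chemokine gene CXCL14 (1.52 ± 0.14, quantile 1.92) rose too. Of 49 matrix proteases and their inhibitors 0 rose and 6 fell (12.2%, near the 14.6% of all genes), TIMP3 (-1.27 ± 0.10, quantile -0.75) and MMP16 (-1.47 ± 0.11, quantile -0.71) among them.

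Adhesion genes moved in both directions. Among 51 cadherins and protocadherins 6 rose (11.8%, against 2.54% of all genes) and 5 fell (9.8%, against 14.6%). PCDH18 read 6.66, 6.72 and 6.65 in vehicle and 8.02, 7.90 and 7.75 with MAPKi (1.21 ± 0.10, quantile 1.82), and FAT4, a giant cadherin of planar polarity, rose by 1.15 ± 0.10 (quantile 1.58), while its binding partner DCHS1 fell (-1.42 ± 0.15, quantile -0.87). DSG2, a desmosomal cadherin, fell (-1.57 ± 0.10, quantile -0.77). The protocadherin beta cluster was looked at after its values were seen. Of its 16 measured genes 11 were higher and 0 lower on the quantile scale, with a median of 0.46, while on the deposited scale 2 were higher and 3 lower, with a median of -0.10. PCDHB6 (0.47 ± 0.12, quantile 0.94) was 1 of the 2 that rose on both scales. The genes of this cluster are related copies, and how far their probe sets share signal was not tested. In the immunoglobulin and other adhesion molecules, 5 of 65 rose (7.69%, against 2.54% of all genes) and 15 fell (23.1%, against 14.6%). CNTN1 (0.95 ± 0.10, quantile 1.42), a neural adhesion protein, rose. CEACAM1, an adhesion molecule of epithelia and melanoma, read 8.27, 8.05 and 8.28 in vehicle and 5.37, 5.45 and 5.45 with MAPKi, with all MAPKi arrays below all vehicle arrays (-2.78 ± 0.11, quantile -2.00). NRCAM (-1.71 ± 0.11, quantile -0.98) and NTM (-1.76 ± 0.13, quantile -1.13) fell as well.

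Of 24 semaphorin, plexin, netrin and slit pathway genes 2 rose (8.33%, against 2.54% of all genes) and 8 fell (33.3%, against 14.6%), and 5 of the 9 plexins fell while 1 rose. PLXNA2, a semaphorin co-receptor, read 8.33, 8.05 and 8.25 in vehicle and 5.20, 5.35 and 5.18 with MAPKi (-2.96 ± 0.10, quantile -2.19), and PLXNA1 followed (-2.07 ± 0.14, quantile -1.27). PLXNB3 rose (0.61 ± 0.13, quantile 1.43), as did the secreted repellent SLIT2 (0.57 ± 0.13, quantile 1.01). The netrin gene NTN1 (-1.51 ± 0.13, quantile -0.79) and its receptor UNC5B (-1.45 ± 0.14, quantile -0.83) both fell. Of 21 ephrins and Eph receptors 1 rose, EFNB2 (0.84 ± 0.14, quantile 1.18), and 6 fell (28.6%, against 14.6% of all genes). EPHA4 (-1.35 ± 0.12, quantile -0.63) and EPHB1 (-1.21 ± 0.13, quantile -0.44) were among the falls. The ephrin EFNA5 had the largest fall of the family, from 9.12 ± 0.20 to 5.22 ± 0.15 (SD, n = 3).

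Several cytokine receptors fell, within a family that as a whole fell about as often as all genes (14.6%): of 115 cytokine, chemokine and TNF superfamily genes 2 rose and 17 fell. IL1RAP, the shared co-receptor of interleukin-1 family ligands, read 7.70, 7.69 and 7.57 in vehicle and 4.93, 4.57 and 4.66 with MAPKi (-2.93 ± 0.13, quantile -2.25, adjusted p = 4.8e-11 by limma). LIFR (-2.24 ± 0.10, quantile -1.52) and OSMR (-2.01 ± 0.10, quantile -1.33), the receptors for leukaemia inhibitory factor and oncostatin M, fell together. IL17RD, also known as SEF, is a feedback inhibitor of FGF signalling, and it fell (-2.51 ± 0.10, quantile -1.76). Of 56 interferon response and antigen presentation genes 1 rose, IFIT1 (0.58 ± 0.16, quantile 0.86), and 8 fell, also near the share over all genes. STING1, the adaptor of cytosolic DNA sensing, read 7.56, 7.27 and 7.71 in vehicle and 5.60, 5.75 and 5.64 with MAPKi and fell (-1.85 ± 0.12, quantile -1.14), and PDCD1LG2, which encodes the PD-1 ligand PD-L2, fell (-1.86 ± 0.14, quantile -1.51). B2M, the light chain of MHC class I, was lower on the deposited scale and higher on the quantile scale (-0.47 ± 0.11, quantile 0.28). Growth factors of the EGF, FGF, VEGF, PDGF and neurotrophic families gave 2 rises and 12 falls among 69 (2.9% and 17.4%). These were near the shares over all genes, but single differences ran from -5.29 to 5.49 on the deposited scale. EDN1, endothelin-1, read 7.55, 7.41 and 7.40 in vehicle and 4.26, 4.26 and 4.15 with MAPKi (-3.23 ± 0.10, quantile -2.61), while its receptor gene EDNRB fell less (-0.90 ± 0.12, quantile -0.46). STC1 (-2.03 ± 0.10, quantile -1.24) and VGF (-2.02 ± 0.13, quantile -1.22), a neuropeptide precursor, fell.

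In the Wnt list 3 of 39 rose and 12 fell (30.8%, against 14.6% of all genes). FZD7, a Wnt receptor, read 9.09, 8.91 and 8.95 in vehicle and 6.75, 6.68 and 6.27 with MAPKi (-2.42 ± 0.15, quantile -1.63), whereas FZD8 rose (0.67 ± 0.12, quantile 1.43). LEF1, the nuclear effector of beta-catenin (-2.19 ± 0.10, quantile -1.43), RNF43, a ligase that removes Frizzled from the membrane (-2.23 ± 0.11, quantile -1.44), and SFRP1, a secreted Wnt antagonist (-1.85 ± 0.10, quantile -1.23), fell. LGR4, an R-spondin receptor, rose (0.97 ± 0.10, quantile 1.74), as did the DKK family member DKK3 (1.49 ± 0.10, quantile 2.03). In the TGF-beta and BMP list 2 of 51 rose and 13 fell (25.5%). BMP7 (0.74 ± 0.11, quantile 1.56) and the inhibitory SMAD6 (0.64 ± 0.11, quantile 1.34) rose, while BMP4 (-1.82 ± 0.13, quantile -1.05), the pseudoreceptor BAMBI (-1.77 ± 0.10, quantile -1.03) and the activin-binding protein FST fell, FST reading 9.60, 9.33 and 9.53 in vehicle and 6.34, 5.83 and 6.13 with MAPKi (-3.38 ± 0.14, quantile -2.62). In the Notch list 2 of 35 rose and 5 fell (14.3%), a share near that over all genes. NOTCH2 rose (0.47 ± 0.11, quantile 1.27), whereas the Notch target genes HEY1 (-1.05 ± 0.12, quantile -0.53) and HEY2 (-1.54 ± 0.11, quantile -0.75) and the coactivator MAML3 (-2.23 ± 0.14, quantile -1.44) fell.

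Transcription factors changed in both directions. TFAP2C, an AP-2 factor, read 10.90, 10.74 and 10.88 in vehicle and 7.20, 7.25 and 7.22 with MAPKi, 12.2-fold lower (-3.61 ± 0.10, quantile -2.92, adjusted p = 2.7e-13 by limma). FOXD3, a neural crest factor and repressor of melanocyte differentiation, read 5.0, 5.29 and 5.09 in vehicle and 6.90, 6.79 and 6.76 with MAPKi and rose (1.69 ± 0.17, quantile 2.07). KLF5 read 7.31, 7.23 and 7.38 in vehicle and 8.69, 8.71 and 8.50 with MAPKi and rose (1.32 ± 0.11, quantile 2.03), and KLF6 of the same family read 9.58, 9.28 and 9.29 in vehicle and 6.47, 6.42 and 6.10 with MAPKi and fell (-3.05 ± 0.13, quantile -2.28). ZEB2 rose (0.52 ± 0.10, quantile 1.25) and ZEB1 fell (-1.68 ± 0.11, quantile -0.91). These are the paired zinc finger homeobox factors of melanocyte and mesenchymal states. Of 129 homeobox genes 4 rose and 20 fell, close to the shares over all genes, with MEIS1 (0.61 ± 0.13, quantile 1.34) and DLX5 (0.80 ± 0.12, quantile 1.22) among the rises and PROX1 (-2.33 ± 0.12, quantile -1.55) and HOXB9 (-2.18 ± 0.11, quantile -1.40) among the falls. Of 67 SOX, FOX and PAX factors 3 rose and 7 fell, a smaller share of falls than the 14.6% of all genes, SOX4 among the rises (0.42 ± 0.12, quantile 1.17). In the list of bHLH and circadian factors 3 of 75 rose (4%, against 2.54% of all genes) and 17 fell (22.7%, against 14.6%). NPAS2, the paralogue of CLOCK, read 10.89, 10.61 and 10.91 in vehicle and 8.21, 8.19 and 8.16 with MAPKi (-2.61 ± 0.12, quantile -1.90), while the clock output gene DBP (0.34 ± 0.11, quantile 1.04) and PER3 (0.43 ± 0.13, quantile 1.01) rose and CLOCK itself was lower on the deposited scale alone (-0.89 ± 0.11, quantile -0.10). DBP did not pass on the deposited scale without vehicle replicate 2 (0.24, limma adjusted p = 0.071) or without MAPKi replicate 2 (0.28, limma adjusted p = 0.066). EPAS1, which encodes the hypoxia factor HIF-2 alpha, rose (0.53 ± 0.11, quantile 1.26), and OLIG2 fell (-2.01 ± 0.15, quantile -1.30). Of 11 nuclear receptors 0 rose and 1 fell, PPARG (-1.83 ± 0.11, quantile -1.05).

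Among 36 measured genes under FOXO control or in PI3K signalling, 4 rose (11.1%, against 2.54% of all genes) and 6 fell (16.7%, near the 14.6% of all genes). On the quantile scale 13 were higher (36.1%, against 14.2%) and 6 lower, with a median of 0.11 (-0.58 on the deposited scale, so of opposite sign). TXNIP, which inhibits thioredoxin and glucose uptake, read 9.44, 9.16 and 9.10 in vehicle and 10.02, 10.10 and 9.77 with MAPKi (0.73 ± 0.12, quantile 1.55). IRS2, the insulin receptor substrate (0.96 ± 0.11, quantile 1.77), SESN3, a brake on mTORC1 (0.99 ± 0.11, quantile 1.5), and BCL6, a repressor (0.52 ± 0.10, quantile 1.35), rose. IGF1R (-1.50 ± 0.11, quantile -0.84), FOXO1 (-1.24 ± 0.14, quantile -0.53) and TRIB2, a pseudokinase that restrains FOXO (-2.65 ± 0.11, quantile -1.88), fell.

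Lysosomal genes took opposite directions on the 2 scales. Of 48 measured hydrolases and lysosomal membrane proteins 38 were lower and 2 higher on the deposited scale, where 66.2% of all genes were lower. On the quantile scale 22 were higher (45.8%, against 14.2% of all genes) and 3 lower (6.25%, against 14.7%). The list median was -0.55 on the deposited scale, against -0.48 over all genes, and 0.20 on the quantile scale. The 3 brightest bins of all genes had quantile medians between -0.00 and 0.03. GPNMB and CTSV (0.87 ± 0.11, quantile 1.46), a cysteine cathepsin, were the 2 that rose on both scales. The proteases CTSD (-0.09 ± 0.10, quantile 0.60) and CTSA (-0.17 ± 0.10, quantile 0.54) did not differ beyond the test on the deposited scale and were higher on the quantile scale, and PSAP, the saposin precursor, was lower on the first and higher on the second (-0.42 ± 0.10, quantile 0.25). ARSG (-1.57 ± 0.11, quantile -0.83), the cation channel gene TPCN1 (-1.47 ± 0.13, quantile -0.69) and CD63 (-1.35 ± 0.11, quantile -0.55) fell. Autophagy genes had 14 of 44 higher (31.8%, against 14.2% of all genes) and 5 lower on the quantile scale, and sorting and endosome genes 21 of 79 higher (26.6%) and 8 lower. The rises on both scales were TP53INP1 (0.78 ± 0.09, quantile 1.33) and TP53INP2 (0.63 ± 0.12, quantile 1.35) among autophagy genes, and the larger of the 2 in the sorting list was SNX21 (0.88 ± 0.11, quantile 1.67). TFEB, a master regulator of lysosomal genes, did not pass on either scale (-0.26 ± 0.12, quantile 0.13), and its relative TFE3 was lower on the deposited scale alone (-0.85 ± 0.11, quantile -0.08). MITF, of the same factor family, did not pass on the deposited scale and was higher on the quantile scale (0.12 ± 0.13, quantile 0.60). TFE factors bind a palindrome known as the CLEAR element, searched here as TCACGTGA, which contains the E-box CACGTG. In the 250 bases before the start site, on either strand, the CLEAR letters stood in 21.2% of 33 lysosomal promoters found in the RefSeq table of GRCh38.p14, against 1.35% of all 10571 promoters of measured genes. The E-box stood in 39.4% against 7.91%. These letters were not particular to lysosomal genes: in 21 promoters of the DNA replication list, most of whose genes fell, they stood in 9.52% and 23.8%. In the 260 promoters of genes that rose they stood in 0.385% and 3.46%, and in the 1713 of genes that fell in 1.28% and 8.81%. A stretch of 80 bases is shown for CTSA and for MFSD1, a lysosomal transporter (0.16 ± 0.10, quantile 0.64), the lysosomal genes with the CLEAR letters that had the highest quantile differences, chosen after their values were seen; capitals mark the element. The first is chr20:45891255-45891334, plus strand and the second chr3:158801974-158802053, plus strand.
CTSA: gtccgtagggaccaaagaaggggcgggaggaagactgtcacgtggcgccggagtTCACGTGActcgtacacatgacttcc
MFSD1: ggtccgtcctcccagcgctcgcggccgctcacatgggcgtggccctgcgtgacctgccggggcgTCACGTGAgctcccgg
A match to these letters describes the sequence and does not show that a factor was bound.

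**Figure D3:**
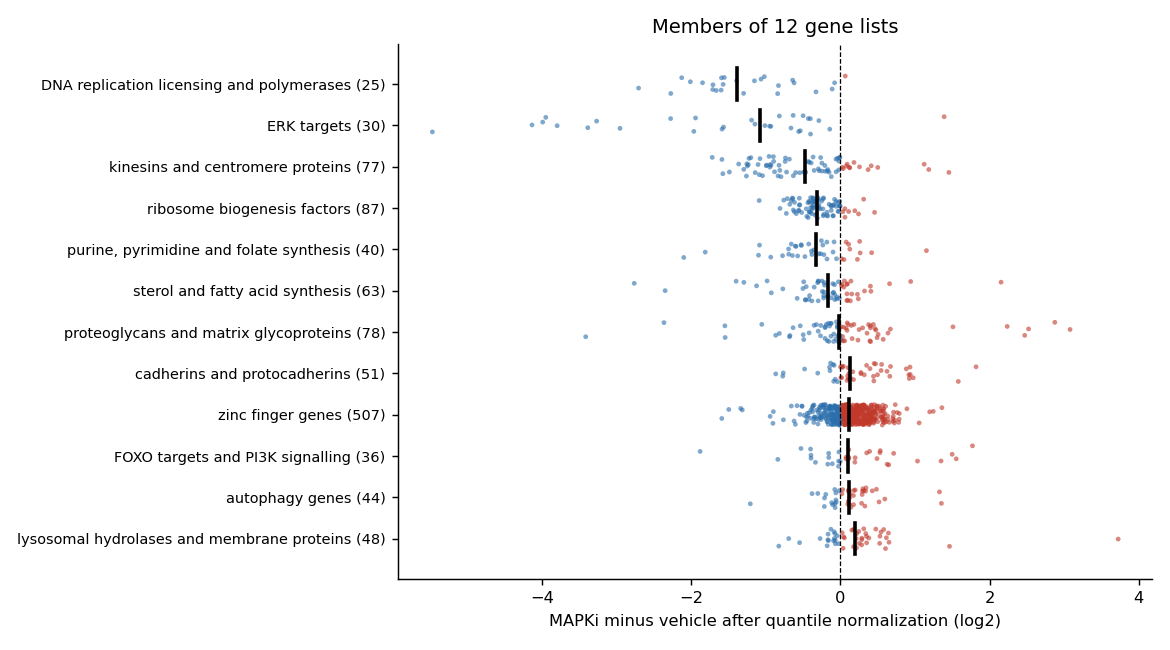
Quantile-scale log2 difference between MAPKi and vehicle (x axis) for every measured member of 12 gene lists (rows), 1 point per gene (red above 0, blue below), with a black tick at the list median and a dashed line at 0. The replication list has its median at -1.39 and the ribosome biogenesis list at -0.32, while the lysosomal list (0.20) and the zinc finger list (0.11) lie to the right of 0.

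Genes of chromosome copying were lower in nearly the whole list. Of 25 measured replication licensing factors and polymerases 22 fell (88%, against 14.6% of all genes) and 0 rose. The list median was -2.15 (-1.39 quantile). CLSPN, the checkpoint adaptor claspin, fell (-2.72 ± 0.13, quantile -2.01). All 5 measured E2F genes fell, a subset looked at after the list's values were seen. E2F1, an activator of S phase genes, read 8.25, 8.01 and 8.53 in vehicle and 6.11, 6.07 and 5.69 with MAPKi, with no overlap between groups (-2.31 ± 0.16, quantile -1.53), and the repressor E2F7 read 8.41, 8.20 and 8.45 in vehicle and 5.98, 5.90 and 5.79 with MAPKi (-2.46 ± 0.10, quantile -1.69). MYBL2, which drives the later mitotic programme, fell (-2.73 ± 0.11, quantile -1.96). In the cyclin, CDK and E2F list 31 of 70 fell (44.3%, against 14.6% of all genes) and 2 rose (2.86%, near the 2.54% of all genes). CDK14, a membrane-tethered CDK, was 1 of the 2 that rose (0.78 ± 0.12, quantile 1.12). E2F sites were searched as TTTCCCGC, TTTGGCGC, TTTCGCGC or TTTGCCGC on either strand. They stood in 28.6% of 21 replication promoters and in 14.8% of 61 promoters of the cyclin list, against 3.84% of all promoters. The share was 6.56% in 61 promoters of the kinesin and centromere list and 5.08% over the 1713 promoters of genes that fell. Shown are E2F1 and the 3 subunits of the replicative helicase with such letters that fell most, MCM7 (-2.42 ± 0.13, quantile -1.66), MCM3 (-2.38 ± 0.11, quantile -1.59) and MCM6 (-2.36 ± 0.10, quantile -1.57), chosen after their values were seen, with the site in capitals, some on the opposite strand. They lie at chr20:33686386-33686465, minus strand (E2F1), chr7:100101541-100101620, minus strand (MCM7), chr6:52284873-52284952, minus strand (MCM3) and chr2:135876552-135876631, minus strand (MCM6).
E2F1: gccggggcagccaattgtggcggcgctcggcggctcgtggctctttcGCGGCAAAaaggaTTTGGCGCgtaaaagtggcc
MCM7: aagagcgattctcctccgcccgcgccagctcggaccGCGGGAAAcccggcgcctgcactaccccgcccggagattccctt
MCM3: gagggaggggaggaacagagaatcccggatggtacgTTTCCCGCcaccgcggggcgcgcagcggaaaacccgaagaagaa
MCM6: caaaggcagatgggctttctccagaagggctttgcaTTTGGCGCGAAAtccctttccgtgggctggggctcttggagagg
In MCM6 a pair of sites overlap, so the capitals run together.

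Genes of the division machinery fell as well, though not every motor did. Of 77 kinesins, centromere and kinetochore genes 48 fell (62.3%, against 14.6% of all genes) and 3 rose (3.9%, against 2.54%). Among the 16 genes with CENP symbols 14 fell, led by CENPK (-2.49 ± 0.13, quantile -1.72), and the centriole kinase PLK4 read 7.24, 7.17 and 6.87 in vehicle and 5.35, 4.60 and 4.74 with MAPKi (-2.20 ± 0.17, quantile -1.58). The 3 rises were the transport kinesins KIF21A (0.59 ± 0.10, quantile 1.18), KIF21B (0.75 ± 0.11, quantile 1.45) and KIF13A (0.35 ± 0.12, quantile 1.12), which carry cargo or regulate microtubule growth and are not mitotic motors. KIF13A did not pass on the deposited scale without vehicle replicate 2 (0.28, limma adjusted p = 0.062) or without MAPKi replicate 1 (0.30, limma adjusted p = 0.054). Of 40 genes of nucleotide and folate synthesis 22 fell (55%, against 14.6% of all genes). RRM2, the regulated subunit of ribonucleotide reductase, read 9.51, 9.15 and 9.38 in vehicle and 6.76, 6.81 and 6.68 with MAPKi (-2.60 ± 0.11, quantile -1.81), and GLDC, the glycine cleavage enzyme, fell (-2.87 ± 0.14, quantile -2.10), as did TYMS (-1.84 ± 0.11, quantile -1.10) and CTPS1 (-1.87 ± 0.10, quantile -1.08). SAMHD1, which degrades deoxynucleotides, was the 1 gene of this list that rose (0.47 ± 0.10, quantile 1.15). Of 119 chromatin enzymes 18 fell (15.1%, near the 14.6% of all genes) and 1 rose (0.84%, against 2.54%). The falls included the DNA methylation maintenance pair UHRF1 (-2.28 ± 0.12, quantile -1.51) and DNMT1 (-1.67 ± 0.11, quantile -0.93). On the quantile scale 29 chromatin enzymes were higher (24.4%, against 14.2% of all genes) and 18 lower (15.1%, near the 14.7% of all genes).

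**Figure D4:**
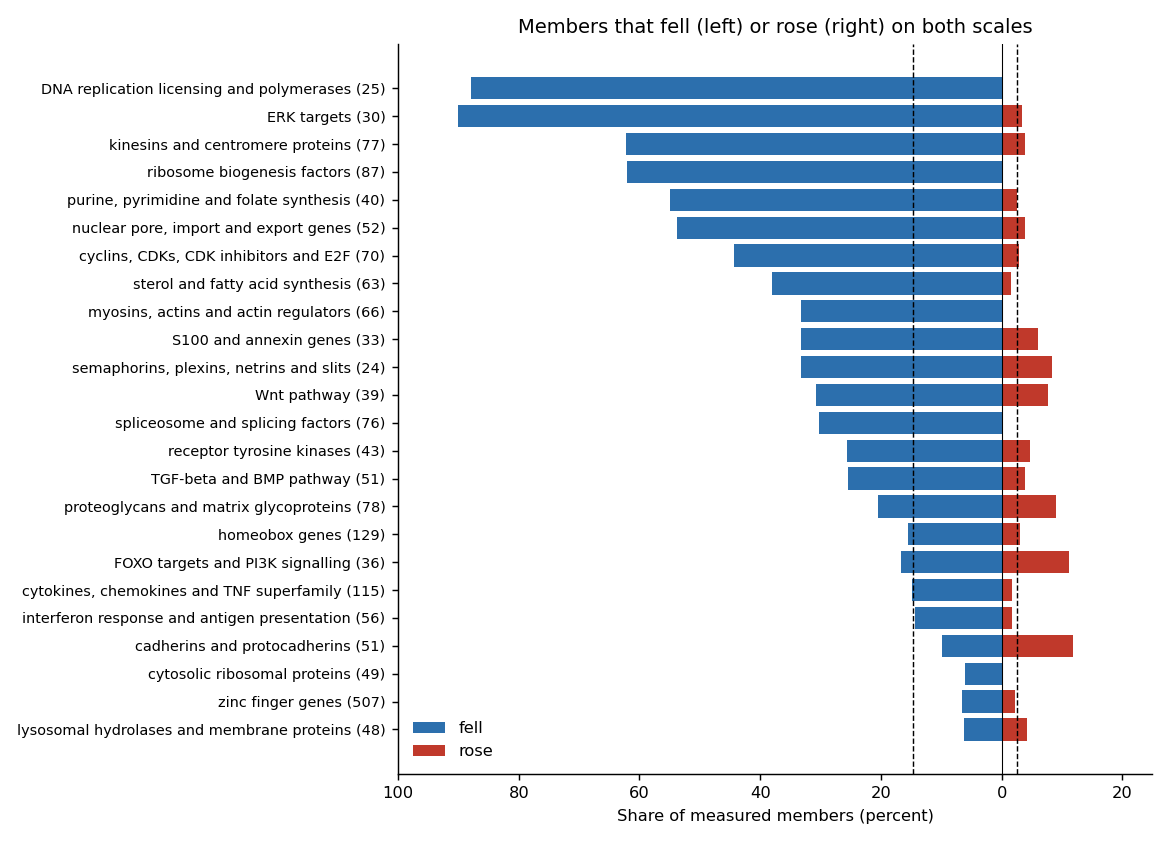
Share of measured members (x axis, percent) that rose (red, to the right) or fell (blue, to the left) on both scales in 24 gene lists (rows, with the number measured). Dashed lines mark the shares over all genes, 2.54% and 14.6%. The replication, ERK target, kinesin and centromere, ribosome biogenesis, nucleotide synthesis and nuclear pore lists pass the line for falls by the widest margin. Several lists pass the line for rises, by the widest margin cadherins (11.8%), FOXO and PI3K genes (11.1%) and matrix genes (8.97%).

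Genes that build ribosomes were lower. All 87 measured ribosome biogenesis factors were lower on the deposited scale, where 66.2% of all genes were lower. On both scales 54 fell (62.1%, against 14.6% of all genes) and 0 rose. MRTO4, a large-subunit assembly factor, read 8.17, 7.72 and 8.20 in vehicle and 6.38, 6.07 and 6.10 with MAPKi (-1.84 ± 0.14, quantile -1.09), and NOP16 fell (-1.58 ± 0.11, quantile -0.81). The ribosome's own proteins were below the background share: of 49 cytosolic ribosomal proteins 3 fell, with a quantile median of -0.05. Among mitochondrial ribosomal proteins 19 of 73 fell (26%, against 14.6% of all genes), MRPL15 most (-1.62 ± 0.10, quantile -0.86). Among aminoacyl-tRNA synthetases 6 of 18 fell (33.3%), VARS1 most (-1.38 ± 0.11, quantile -0.62). EIF4EBP1, which restrains cap-dependent translation, read 9.60, 9.42 and 9.55 in vehicle and 7.46, 7.27 and 7.11 with MAPKi and fell (-2.24 ± 0.12, quantile -1.46), while EIF5A2 rose (0.61 ± 0.10, quantile 1.44). POLR3G, a subunit of RNA polymerase III, fell (-1.47 ± 0.13, quantile -0.66), in a list where 2 of 8 genes fell (25%) and 0 rose. The vault RNAs VTRNA1-2 (-1.19 ± 0.20, quantile -0.84) and VTRNA1-3 (-1.53 ± 0.14, quantile -0.92), made by that polymerase, fell too. They are close copies whose probe sets may share signal. Of the 6 measured small nuclear, vault, Y and 7SK RNAs 2 fell (33.3%) and 0 rose. Of 76 splicing factors 23 fell (30.3%, against 14.6% of all genes) and 0 rose, with SNRPB2 at the head (-2.16 ± 0.10, quantile -1.52). Of 52 nuclear pore, import and export genes 28 fell (53.8%, against 14.6% of all genes) and 2 rose (3.85%, against 2.54%). NUP205 (-1.78 ± 0.11, quantile -1.03) and the importin IPO4 (-1.67 ± 0.12, quantile -0.91) were among the falls. The larger of the 2 rises was NUP42 (0.44 ± 0.11, quantile 1.27). The ETS site CCGGAAGT, on either strand, stood in 20.5% of 73 ribosome biogenesis promoters and in 13.4% of 426 zinc finger promoters. Its share was 5.41% over all promoters and 5.43% over the 1713 promoters of genes that fell. It stood in 0 of 18 promoters of the ERK target list. The 3 biogenesis genes with this site that fell most, chosen after their values were seen, are the helicase DDX21 (-1.47 ± 0.10, quantile -0.72), NOC3L (-1.37 ± 0.11, quantile -0.64) and the histone-binding assembly factor GRWD1 (-1.35 ± 0.12, quantile -0.56). Capitals mark the site at chr10:68956074-68956153, plus strand, chr10:94362945-94363024, minus strand and chr19:48445903-48445982, plus strand.
DDX21: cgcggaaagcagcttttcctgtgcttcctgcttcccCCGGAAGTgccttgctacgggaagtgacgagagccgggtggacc
NOC3L: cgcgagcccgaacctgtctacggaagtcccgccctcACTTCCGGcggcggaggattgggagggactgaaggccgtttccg
GRWD1: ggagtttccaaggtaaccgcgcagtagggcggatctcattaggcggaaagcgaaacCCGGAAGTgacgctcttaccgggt
The zinc finger list, which holds the site at a raised share as well, had 118 of 507 genes higher (23.3%, against 14.2% of all genes) and 33 lower (6.51%, against 14.7%) on the quantile scale, with a median of 0.11. On both scales 11 rose (2.17%, below the 2.54% of all genes) and 33 fell. ZNF117 (0.66 ± 0.13, quantile 1.36) and ZNF493 (0.81 ± 0.15, quantile 1.24) rose, and ZNF704 (-2.34 ± 0.13, quantile -1.59) and ZNF367 (-2.22 ± 0.13, quantile -1.50) fell. Many zinc finger genes have related copies, and shared signal between them was not tested.

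Sterol and fatty acid genes fell more often than all genes, and single lipid and polyamine genes changed strongly. Of 63 sterol and fatty acid genes 24 fell (38.1%, against 14.6% of all genes) and 1 rose (1.59%, against 2.54%). ELOVL2, which elongates polyunsaturated fatty acids, read 9.13, 9.03 and 9.02 in vehicle and 5.43, 5.66 and 5.42 with MAPKi, 11.8-fold lower (-3.56 ± 0.10, quantile -2.76), and ELOVL6 (-2.16 ± 0.11, quantile -1.40) and ACSS2, which makes acetyl-CoA from acetate (-2.07 ± 0.13, quantile -1.29), fell. MGLL, monoacylglycerol lipase, read 9.50, 9.10 and 9.33 in vehicle and 6.25, 6.32 and 5.98 with MAPKi (-3.13 ± 0.13, quantile -2.35). ACSL1, which activates long-chain fatty acids, was the gene that rose, reading 8.55, 8.28 and 8.30 in vehicle and 9.86, 9.70 and 9.65 with MAPKi (1.36 ± 0.11, quantile 2.15). INPP5F, a phosphoinositide phosphatase, fell (-2.87 ± 0.10, quantile -2.19). In the amino acid response list 2 of 38 rose (5.26%, against 2.54% of all genes) and 10 fell (26.3%, against 14.6%). SRM, spermidine synthase, rose (0.74 ± 0.11, quantile 1.45), and of the antizyme inhibitors AZIN2 rose (1.04 ± 0.14, quantile 1.60) and AZIN1 fell (-1.30 ± 0.10, quantile -0.49). In the antioxidant list 2 of 73 rose and 8 fell (2.74% and 11%), against 2.54% and 14.6% of all genes. The metallothionein MT2A read 10.16, 9.97 and 10.33 in vehicle and 8.12, 7.62 and 7.75 with MAPKi and fell (-2.33 ± 0.15, quantile -1.60), and GSS, glutathione synthetase, fell (-1.95 ± 0.11, quantile -1.15), while the glutathione transferase GSTA4 rose (0.70 ± 0.09, quantile 1.41). Within 29 genes of glycolysis and the pentose phosphate pathway 0 rose and 9 fell (31%, against 14.6% of all genes). LDHA was among the falls (-1.46 ± 0.11, quantile -0.69).

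Actin regulators fell in the cytoskeleton. Of 66 myosins, actins and their regulators 22 fell (33.3%, against 14.6% of all genes) and 0 rose. MYO1E, a membrane-bound myosin (-2.26 ± 0.10, quantile -1.47), the formin DIAPH3 (-2.24 ± 0.12, quantile -1.47), the focal adhesion adaptor PXN (-2.00 ± 0.10, quantile -1.26) and the tropomyosin TPM4 (-1.97 ± 0.11, quantile -1.19) fell. Of 32 tubulins and microtubule regulators 4 fell (12.5%) and 1 rose (3.12%), near the shares over all genes. Whether these shares differ was not tested. KRT18 (-2.11 ± 0.12, quantile -1.42), the neural progenitor filament NES (-2.05 ± 0.10, quantile -1.34) and the lamin LMNB1 (-1.80 ± 0.11, quantile -1.0) fell, and VIM, vimentin, was lower on the deposited scale alone (-0.67 ± 0.10, quantile 0.07). In the S100 and annexin list 11 of 33 fell (33.3%, against 14.6% of all genes) and 2 rose (6.06%, against 2.54%). ANXA1 read 6.16, 6.23 and 5.97 in vehicle and 4.54, 3.90 and 4.20 with MAPKi and fell (-1.91 ± 0.14, quantile -1.50), whereas ANXA2 read 8.02, 7.55 and 7.55 in vehicle and 8.31, 8.33 and 8.31 with MAPKi and rose (0.61 ± 0.15, quantile 1.36). S100A16 fell (-2.73 ± 0.15, quantile -1.94).

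Non-coding RNAs had a smaller median shift on the deposited scale, -0.25 for 1361 lncRNA genes against -0.55 for 11734 protein-coding genes. They were also dimmer, with a median vehicle level of 4.98 against 6.84, and dim genes of any kind shifted less, so class and brightness were not separated. Of 453 long intergenic RNAs 7 rose (1.55%) and 21 fell (4.64%), and of 484 antisense RNAs 14 rose (2.89%) and 21 fell (4.34%). Both classes fell less often than all genes (14.6%), of which 2.54% rose. Whether overlapping genes share signal was not tested. LINC00473 read 9.34, 8.77 and 9.10 in vehicle and 6.40, 6.16 and 6.46 with MAPKi (-2.73 ± 0.16, quantile -1.95), LINC00941 fell (-2.00 ± 0.11, quantile -1.42), and LINC03006 rose (1.07 ± 0.16, quantile 1.74). Among all 1361 lncRNA genes 202 were higher on the quantile scale (14.8%, near the 14.2% of all genes) and 63 were lower (4.63%, against 14.7%). Of 1039 microRNA genes 27 rose (2.6%, near the 2.54% of all genes) and 45 fell (4.33%, against 14.6%). The values describe probe sets over the gene, not the mature microRNA. MIR100 read 4.15, 3.61 and 3.87 in vehicle and 2.56, 2.60 and 2.72 with MAPKi (-1.25 ± 0.13, quantile -1.15), and its host transcript MIR100HG fell as well (-1.19 ± 0.14, quantile -0.65). MIR622 (-2.25 ± 0.18, quantile -1.69) and MIR3122 (-1.48 ± 0.17, quantile -1.27) fell, and MIR4534 read 8.33, 8.01 and 8.15 in vehicle and 9.33, 9.08 and 9.31 with MAPKi and rose (1.07 ± 0.16, quantile 1.89). The mature sequences from RefSeq are shown to identify these 4 genes, with the seed, bases 2 to 8, in capitals; no seed was shared among the 8 mature sequences matched to the microRNA genes with the largest changes.
hsa-miR-100-5p: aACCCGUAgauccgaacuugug
hsa-miR-622: aCAGUCUGcugagguuggagc
hsa-miR-3122: gUUGGGACaagaggacggucuu
hsa-miR-4534: gGAUGGAGgaggggucu

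The same 2 drugs were also given on top of entinostat, and those 6 arrays did not enter the differences that chose the genes above, although all 12 arrays shared the estimate of spread and the quantile normalization. The combination was compared with entinostat alone by the same fit. In that comparison 85 genes were higher (0.582%) and 1821 were lower (12.5%) on both scales. Of the 371 genes that rose with MAPKi alone, 48 were higher (12.9%) and 3 lower, and 339 had the same sign on the quantile scale (91.4%, against 63.9% of all genes). Of the 2134 that fell, 1061 were lower (49.7%) and 0 higher. Among the 30 largest rises 17 were higher again, and among the 30 largest falls 29 were lower again. Across 14599 genes, which are not independent replicates, the quantile differences of both comparisons had a Pearson r of 0.624. On the deposited scale GAB1 differed by -0.20 ± 0.12 (quantile 0.39), PRELP by 0.94 ± 0.10 (quantile 1.57), ACAN by 0.19 ± 0.11 (quantile 1.05), FGFR2 by 0.46 ± 0.10 (quantile 1.27) and CCN2 by 0.37 ± 0.10 (quantile 0.96) in the presence of entinostat. The falls of PLXNA2 (-1.57 ± 0.10, quantile -0.70), TFAP2C (-1.82 ± 0.10, quantile -1.02) and IL1RAP (-2.44 ± 0.13, quantile -1.95) were also measured there. Tested by interaction on the quantile scale, the MAPKi effect differed with entinostat for 212 of the 371 rising genes and 749 of the 2134 falling genes, a test that reuses the arrays that chose them. These are 57.1% and 35.1%, against 12.5% of all genes. On the deposited scale the counts were 235 (63.3%) and 453 (21.2%), against 8.0% of all genes.

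**Figure D5:**
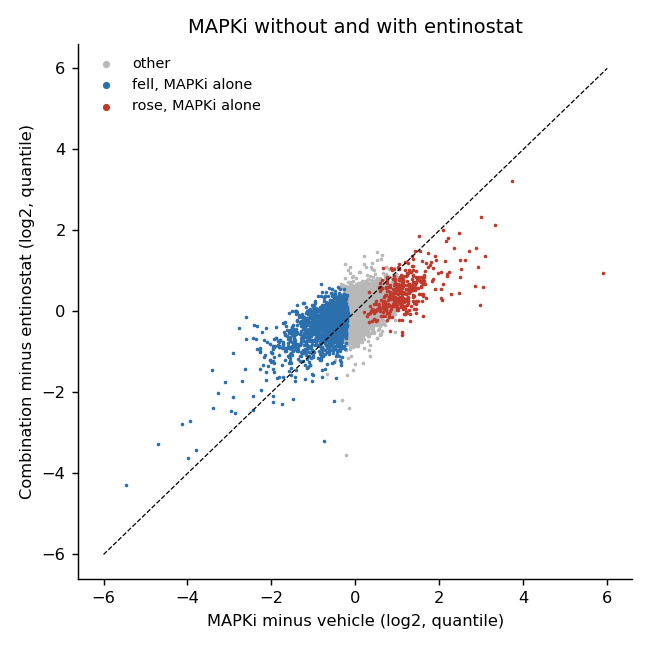
Quantile-scale log2 difference of the combination minus entinostat (y axis) against MAPKi minus vehicle (x axis) for 14599 genes; red and blue points are genes that rose or fell in the x comparison on both scales, and the dashed line marks equal differences. The comparisons share no array, and Pearson's r across genes is 0.624.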

How the data were processed

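The deposited table holds a linear intensity for each probe set on 12 single-colour Affymetrix arrays, which the authors obtained by RMA (Transcriptome Analysis Console), per the submitters' processing notes. The scaling between arrays was not stated, and tool versions and the build were not given in the sources used here. Of 29592 rows, 14783 had 1 gene symbol in the platform annotation, 0 had several and 14809 had none, giving 14599 genes. For the 169 genes with more than 1 row, the brightest row on average was kept. Log2 values were fitted with limma 3.58.1 in R 4.3.3 (a mean per group, all 12 arrays, 8 residual and 7.68 prior degrees of freedom), before and after quantile normalization of all rows, with Benjamini-Hochberg adjustment over 14599 genes and a threshold of 0.05. The fit was checked on simulated data with 200 changed genes. The 88 gene lists and the members were chosen with earlier results of these data known. Lists with few named members, such as histones, collagens and integrins, are not described here. Genes were named by rule: the 30 largest rises and 30 largest falls by quantile difference, per list the 4 largest each way and the 3 brightest that missed the test, and fixed marker genes, of which 14 were measured. Rises and falls had to pass on both scales with no overlap between arrays. Genes named outside the rule are marked in the text. Promoters and microRNA sequences are RefSeq's, on GRCh38.p14. Precision is limited by the number of arrays. Arrays of the same number did not deviate together: with group means taken out, r over genes was 0.057, 0.019 and 0.009 for the 3 same-number pairs, so the arrays were not treated as paired. Figures were drawn with matplotlib in Python.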

Additional observations from a re-analysis of the deposited data

Results flagged for a closer look

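Rows outside the named comparison also held signal. Among 14809 rows with no gene name here, 307 were higher and 1137 were lower with MAPKi than with vehicle on both scales, the same rule as for named genes. Their median difference was -0.30 on the deposited scale, and single rows reached 3.42 and -4.12. These rows were counted and not analysed further.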

How the results depend on the processing

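The scale decided most counts. Against 434 genes higher and 9660 lower on the deposited scale, quantile normalization gave 2075 and 2139, subtraction of each array's median 2586 and 4263, and cyclic loess 2119 and 2367. The split between higher and lower calls thus followed the scaling. Leaving out the dimmest 40% of genes gave 259 higher, with fewer genes tested. With the replicate number as a block the counts were 442 and 9775, and 2057 and 2099 together with quantile normalization, a fit added after the data were seen; 202 of 202 named genes kept their call and direction under the block on the deposited scale. Leaving out 1 array at a time gave 373 to 452 higher and 8410 to 9520 lower on the deposited scale, and, added afterwards, 1704 to 1825 and 1756 to 1920 on the quantile scale. Of the genes that rose on both scales, between 298 and 342 rose again without 1 array, and of those that fell, between 1727 and 1806.

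Named rises and falls had to pass in 1 direction on the deposited and the quantile scale, so their signs could not turn between those 2. Over all genes, 765 called lower on the deposited scale were called higher on the quantile scale. With quantile normalization, array medians subtracted and cyclic loess, in that order, the differences were 0.54, 0.27 and 0.56 for CTSA, 0.60, 0.35 and 0.62 for CTSD, 0.34, 0.31 and 0.37 for MAP2K2, 0.25, 0.021 and 0.28 for PSAP, 0.40, 0.088 and 0.41 for SOX10, 0.13, 0.18 and 0.13 for TFEB, and 0.17, 0.40 and 0.15 for MLANA. Without 1 array at a time MLANA ranged from -0.123 to 0.081, the highest without MAPKi replicate 2. With quantile normalization and cyclic loess they were 0.28 and 0.28 for B2M, 0.15 and 0.14 for THBS1, and 0.073 and 0.068 for VIM. With medians subtracted they were 0.21 for CXCL8, 0.21 for TYR and 0.27 for TYRP1, and did not pass (limma adjusted p = 0.242, 0.274 and 0.172). With cyclic loess FN1 was at 0.008 (limma adjusted p = 0.939). All genes listed in this paragraph had a negative difference on the deposited scale with all arrays, so the positive values mark settings where the sign turned. Without vehicle replicate 1, TYR was lower on the deposited scale (-0.35, limma adjusted p = 0.0497). All 79 list medians with at least 5 genes moved by more than the spread between arrays under each of the 3 scalings. Leaving out the dimmest 40% of genes moved 39 list medians by that measure and kept 35. Leaving out 1 array moved between 0 and 12 of them, the most without vehicle replicate 1. Dim genes are limited by their signal over background, which the table does not give.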
